A study of Mus musculus with 14 samples.

Results

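The regions described here lie in and around 4 mouse genes that encode subunits of glutamate receptors: Gria1 and Gria2 for AMPA receptors, Grin2a and Grin2b for NMDA receptors. A region was taken when it overlapped a window around a gene in the mm9 genome build: chr11:56815000-57150000 for Gria1, chr3:80475000-80615000 for Gria2, chr16:9570000-9995000 for Grin2a and chr6:135665000-136125000 for Grin2b. This gave 216 of the 191271 regions in the study, 58 at Gria1, 40 at Gria2, 47 at Grin2a and 71 at Grin2b. The windows were set by position and used no measured value.

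AMPA and NMDA receptors are the ion channels that carry most fast excitatory signalling between neurons of the hippocampus. AMPA receptors pass the current of a synaptic event, and the GRIA2 subunit, through RNA editing of its transcript, keeps such channels largely closed to calcium. NMDA receptors open when glutamate binds while the membrane is depolarised and then admit calcium, and GRIN2A and GRIN2B are alternative regulatory subunits whose balance shifts from GRIN2B towards GRIN2A as the brain matures. Movement of AMPA receptors into synapses after NMDA receptor activity is a textbook mechanism of long-term potentiation, the strengthening of synapses linked to memory.

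The assay was ATAC-seq on sorted neuronal nuclei of hippocampus: a transposase inserts adapters where DNA is open, and reads from the inserts mark accessible sites. All mice carried ArcCreERT2 together with R26R-STOP-floxed- eYFP, a yellow fluorescent reporter, with genotype +/+, and by the labels' protocol were given 4-hydroxytamoxifen before contextual fear conditioning. In this strain Cre is driven from the Arc gene, which neurons switch on with activity, and tamoxifen lets Cre turn on the reporter. The 14 libraries form 4 groups. Basal (n = 4) and Early (n = 3) carry the same treatment label, a foot shock and collection on day 0 without recall, and differ in their titles. Late (n = 4) had no recall and was collected on day 5. Reactivated (n = 3) underwent recall on day 5. The collection labels of the Reactivated libraries are day 5 for replicate 1, day 6 for replicate 2 and day 7 for replicate 3, so collection day and replicate cannot be told apart. The series' design text says that tissue of several mice was pooled and cells isolated by fluorescence. The labels give neither the sorted population of a group nor the age of the mice, and nothing ties a library to separate mice, so the p-values reflect how far these libraries spread, and that spread may be technical. A fold change against Basal is a difference between labelled groups, and whether it is one in time was not tested. The neuronal label was not checked against marker genes, because no mm9 gene annotation was used here.

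The Gria2 promoter is shown because Gria2 held the region of highest level among the 216. RefSeq's promoter table (GRCm38.p6) matched 1 of the 4 genes, and the sequence below is the 250 bases before the Gria2 start on the minus strand of chromosome 3, written 5′ to 3′, with CpG dinucleotides in capitals.
Gria2 promoter: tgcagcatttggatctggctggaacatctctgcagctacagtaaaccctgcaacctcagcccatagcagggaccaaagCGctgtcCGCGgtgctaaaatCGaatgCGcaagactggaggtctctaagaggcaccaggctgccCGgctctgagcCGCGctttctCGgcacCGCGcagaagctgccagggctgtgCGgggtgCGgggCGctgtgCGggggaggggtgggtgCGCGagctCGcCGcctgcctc
It held 19 CpG dinucleotides, where the median of all promoters in the table was 6, and 82.1% of promoters held as many or fewer. Its GC content was 64.8%, at or above that of 83.0% of promoters, whose median was 52.4%. Searched on both strands, the cyclic AMP response element TGACGTCA had 0 matches here and was found in 1.55% of all promoters. The AP-1 motif TGANTCA had 0 matches, against 6.75% of promoters with a match. GGGCGG, the core of the Sp1 motif, had 0 matches against 32.7%. The E-box CANNTG matched at 1 position, base -245 from the start, and occurs in 66.2% of promoters. The NRF1 motif and a serum response element, each searched as a single fixed form, had 0 matches each, against 3.74% and 0.0609% of promoters. These matches describe letters in this window only, and the sequence's build differs from that of the accessibility data, so the promoter was not placed on the regions.

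The table held RPKM values, reads per region scaled to the region's length and the library's reads. Multiplied by region length, each value was a whole multiple of the same step within a library, so reads could be counted back. Libraries held between 46134255 and 56251679 reads, and regions took up between 13.2% and 27.8% of them. That share was 13.8%, 27.8% and 18.1% in Early replicates 1 to 3. It lay between 13.2% and 19.3% in Basal, between 18.4% and 20.02% in Late and between 21.3% and 24.0% in Reactivated. Early replicate 2 therefore stood apart from the other Early libraries. Results that rest on it are given without it, apart from the order of group means within regions. The mean chi-square of reads per region between libraries of a group, 1 for sampling noise alone, was 1.72 to 1.94 in Late and 2.25 to 6.45 in the other groups. Reads per library were 1436 to 4922 at Gria1, 1691 to 3807 at Gria2, 1009 to 3323 at Grin2a and 1748 to 5158 at Grin2b, and the median region held between 28 and 42 reads in a library. Of all member values, 7 stood at 1 read, the lowest value listed in the table. Between 2.27% and 3.11% of all regions stood at it in a library. Whether this value also stands for regions without reads was not tested.

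The 4 loci differed in how densely they were covered by regions. Gria2 was the most compact, with 28.6 regions per 100 kb and 20.8% of its window inside regions. Gria1 had 17.3 regions per 100 kb and 10.7% of its window inside regions, Grin2b 15.4 and 10.4%, and Grin2a 11.1 and 6.51%. Median region length was 439 bases at Gria1, 553 at Gria2, 514 at Grin2a and 559 at Grin2b, beside 520 over all regions. Averaged over the 14 libraries, the level of a region exceeded the median of all regions, 1.31 RPKM, in 33 of 58 regions at Gria1 and 25 of 40 at Gria2, but in 15 of 47 at Grin2a and 21 of 71 at Grin2b. The highest 10% of all regions began at 2.22 RPKM and included 2 regions of Gria1, 7 of Gria2, 0 of Grin2a and 3 of Grin2b. No protein-coding gene overlapped these 4 genes in RefSeq's GRCm38.p6 table, which lists 1 pseudogene overlapping Grin2a and 3 long non-coding RNA genes overlapping Grin2b. Accessibility does not tell which gene a region belongs to.

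The level of a locus was taken as the mean RPKM of its regions, weighted by length. At Gria1 it was 1.30, 0.938, 0.963 and 1.13 RPKM in Basal, 0.739, 1.69 and 1.10 in Early, 1.33, 1.66, 1.52 and 1.56 in Late, and 2.44, 1.49 and 1.66 in Reactivated. The 4 Late libraries and the 3 Reactivated libraries were each above all Basal libraries, and Early spanned the Basal range on both sides. At Gria2 it was 1.51, 1.20, 1.13 and 1.44 RPKM in Basal, 1.07, 2.41 and 1.31 in Early, 1.69, 1.97, 2.04 and 1.87 in Late, and 2.25, 2.03 and 2.37 in Reactivated. Here too Late and Reactivated lay above Basal without overlap, while Early replicate 2 had the highest value of all 14 libraries.

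At Grin2a the level was 1.29, 0.923, 0.963 and 1.20 RPKM in Basal, 0.672, 1.20 and 0.961 in Early, 1.22, 1.53, 1.40 and 1.45 in Late, and 2.14, 1.40 and 1.60 in Reactivated. Early and Late did not overlap at this locus, with Early the lower group. At Grin2b it was 1.10, 0.737, 0.852 and 1.02 RPKM in Basal, 0.672, 1.26 and 0.935 in Early, 1.10, 1.37, 1.34 and 1.48 in Late, and 1.91, 1.21 and 1.56 in Reactivated. Reactivated replicate 1 was the highest of the 14 libraries at both NMDA receptor loci and at Gria1. Per length, Gria2 had the highest level of the 4 loci in 13 of 14 libraries and Grin2b the lowest in 11.

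**Figure D1:**
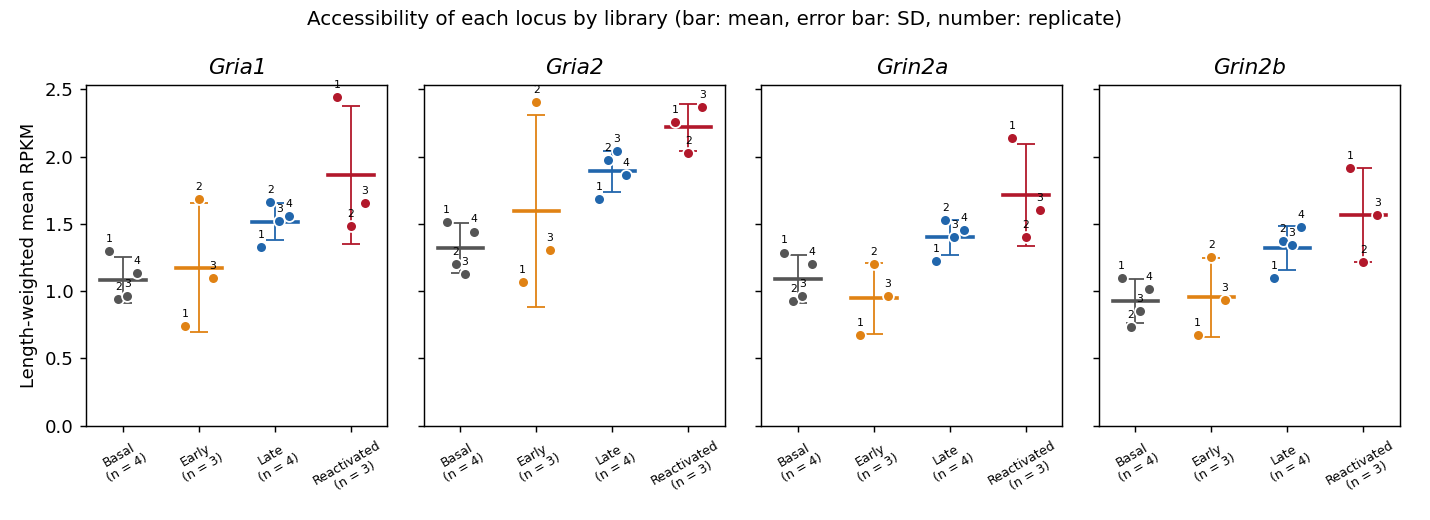
Level of each locus (length-weighted mean RPKM, y axis from 0) in every library, by group. Each point is 1 library, and the bar and line give the group's mean and SD. Reactivated libraries lie above all Basal libraries in the 4 panels, and the 3 Early points spread widely.

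The group means ran in the order Basal, Early, Late, Reactivated at Gria1, Gria2 and Grin2b, and Early, Basal, Late, Reactivated at Grin2a. Every pair of neighbours in these orders overlapped between libraries. Late exceeded Basal 1.40-fold at Gria1 (1.52 ± 0.138 against 1.08 ± 0.168 RPKM, SD, n = 4 and 4) and 1.43-fold at Gria2 (1.89 ± 0.155 against 1.32 ± 0.185 RPKM). Both had a 2-sided exact permutation p of 0.0286, which is the lower limit for 4 against 4 libraries, and 0.152 after adjustment over 24 tests. Late against Basal was 1.28-fold at Grin2a and 1.43-fold at Grin2b, each with overlapping libraries (exact p = 0.0571, adjusted 0.152). Reactivated exceeded Basal 1.72-fold at Gria1, 1.68-fold at Gria2, 1.57-fold at Grin2a and 1.69-fold at Grin2b, without overlap. Without Reactivated replicate 1 the difference fell from 0.779 to 0.489 RPKM at Gria1 and from 0.619 to 0.407 RPKM at Grin2a. These 4 comparisons of all libraries had an exact p of 0.0571, the smallest for 3 against 4, and 0.152 adjusted. No test of locus level passed 0.05 after adjustment, and none could have. Even if each of the 24 tests had its smallest exact p, the adjusted values would stay above 0.05.

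Accessibility over the whole table also differed between libraries. The mean RPKM of all other regions was 1.58, 1.16, 1.08 and 1.32 in Basal, 1.13, 2.28 and 1.49 in Early, 1.51, 1.56, 1.64 and 1.57 in Late, and 1.97, 1.74 and 1.96 in Reactivated. When libraries were rescaled by the median of their ratios to a common reference, the median log2 fold change of all tested regions moved from 0.23 to 0.00 for Early against Basal, from 0.28 to 0.00 for Late against Basal and from 0.39 to 0.04 for Reactivated against Basal. Under that scaling, the difference between Early and Basal turned negative at Gria1, Gria2 and Grin2b, and that between Late and Basal turned to -0.0294 RPKM at Grin2a. In such bulk libraries, a change in accessibility per nucleus and a change in which nuclei were sorted cannot be told apart.

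Relative to all other regions of the same library, Early had the lowest group mean at the 4 loci, with the largest difference at Grin2a. This ratio does not change when a library is rescaled by a single factor. At Grin2a the locus stood at 0.812, 0.793, 0.892 and 0.907 of the level of all other regions in Basal, at 0.593, 0.528 and 0.647 in Early, at 0.808, 0.980, 0.855 and 0.925 in Late, and at 1.08, 0.803 and 0.818 in Reactivated. The 3 Early libraries lay below the 11 others. The difference between Early and Basal was -0.53 on the log2 scale, a ratio of 0.692. Late exceeded Early by 0.60 and Reactivated exceeded Early by 0.60 on the log2 scale. Leaving out each library in turn kept the difference between Early and Basal within -0.60 and -0.46.

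At Grin2b the ratio was 0.692, 0.633, 0.790 and 0.769 in Basal, 0.593, 0.552 and 0.629 in Early, 0.725, 0.880, 0.819 and 0.940 in Late, and 0.972, 0.696 and 0.800 in Reactivated. Early lay just below the lowest Basal library, with a log2 difference of -0.28 (-0.34 to -0.23 with each library left out in turn). At Gria1 the ratio was 0.820, 0.806, 0.892 and 0.856 in Basal, 0.652, 0.741 and 0.741 in Early, 0.880, 1.07, 0.927 and 0.991 in Late, and 1.24, 0.853 and 0.847 in Reactivated. Again the Early libraries were below all others, with a log2 difference of -0.25 from Basal (-0.28 to -0.19). At Gria2, the locus of highest level, the ratio was 0.954, 1.03, 1.04 and 1.09 in Basal, 0.943, 1.06 and 0.880 in Early, 1.12, 1.27, 1.24 and 1.19 in Late, and 1.14, 1.16 and 1.21 in Reactivated. Early overlapped Basal at Gria2 (log2 difference -0.11, -0.18 to -0.05 with each library left out in turn, exact p = 0.286), and both later groups lay above both day 0 groups.

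**Figure D2:**
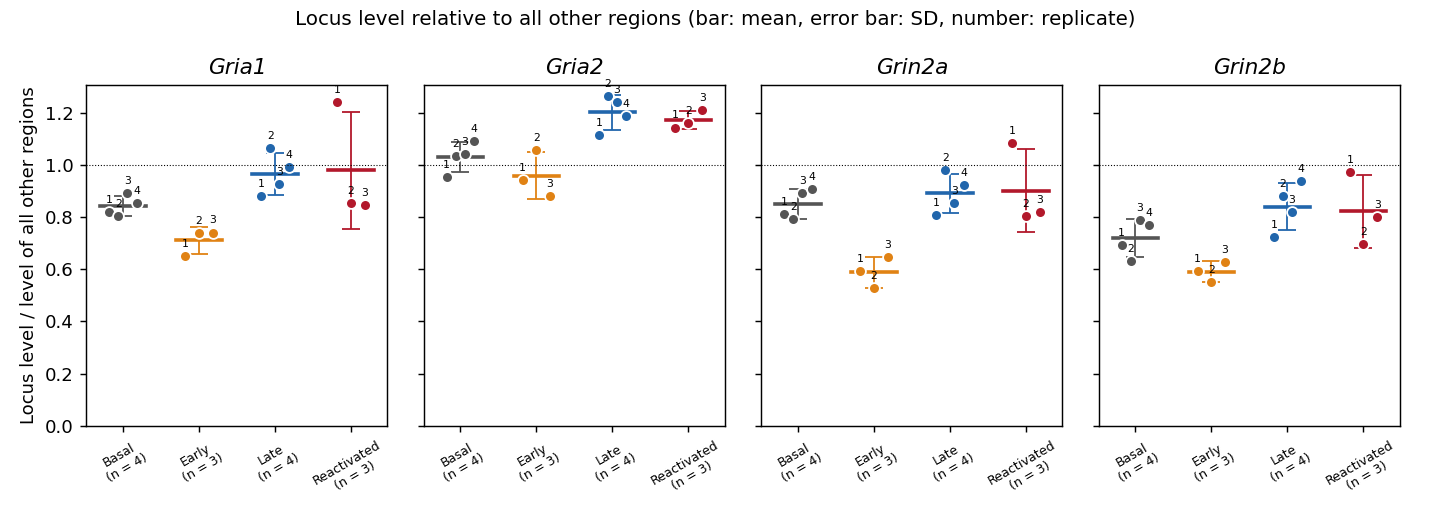
Level of each locus divided by that of all other regions of the same library (y axis from 0), where the dotted line at 1 is equality. Each point is 1 library, with the group's mean and SD. At Gria1, Grin2a and Grin2b the 3 Early libraries are the lowest of the 14.

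For Early against Basal, the exact p of this relative level was 0.0571 at Gria1, Grin2a and Grin2b, its lower limit for 3 against 4 libraries, and 0.137 after adjustment over 24 tests. Late against Early had the same p at each of the 4 loci, with log2 differences of 0.44 at Gria1, 0.33 at Gria2, 0.60 at Grin2a and 0.50 at Grin2b and no overlap. Reactivated against Early differed by 0.44, 0.29, 0.60 and 0.46 in the same order, without overlap, with an exact p of 0.1, the smallest for 3 against 3, and 0.171 adjusted. Without Reactivated replicate 1, whose Gria1 ratio was 1.24, the difference at Gria1 was 0.26. Late against Basal was largest at Gria2 (log2 difference 0.22, exact p = 0.0286, adjusted 0.137), without overlap. Between Reactivated and Late the relative levels overlapped at each locus, and the log2 differences were 0.0009 at Gria1, -0.04 at Gria2, 0.006 at Grin2a and -0.04 at Grin2b. None of the 24 tests passed 0.05 after adjustment, which the group sizes did not allow here either.

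The mean log2 level of the AMPA receptor loci, Gria1 and Gria2, exceeded that of the NMDA receptor loci, Grin2a and Grin2b, in each library. Single loci did not always follow, as Grin2a (1.20 RPKM) exceeded Gria1 (1.13 RPKM) in Basal replicate 4. The gap between these mean log2 levels lay between 0.20 and 0.37 in Basal and 0.34 and 0.71 in Early. It lay between 0.22 and 0.37 in Late, and 0.21 and 0.41 in Reactivated. Early replicate 2 had the widest gap, 0.71, and the other Early libraries were at 0.40 and 0.34. The difference of this gap between Early and Basal was 0.23 (exact p = 0.114, adjusted over 6 tests 0.450), with overlapping libraries, and 0.12 without Early replicate 2. Late and Reactivated each exceeded Basal by 0.06, with adjusted exact permutation p of 0.450 and 0.480. The Late difference was 0.10 without Basal replicate 2 or Late replicate 4. The Reactivated difference was 0.016 without Reactivated replicate 2, 0.11 without Reactivated replicate 1 and 0.10 without Basal replicate 2. With these group sizes, none of the 6 tests could have passed after adjustment, even if each had its smallest exact p. They therefore cannot decide whether the gap between the receptor classes shifted. Libraries overlapped in each of the 6 comparisons of this gap.

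Single regions were tested on log2(RPKM + 0.5) with limma over all 172143 regions that passed a filter on low values, and called at an adjusted p under 0.05. Fold changes on this scale understate the change of low regions. The filter kept 204 of the 216 members: 57 at Gria1, 39 at Gria2, 44 at Grin2a and 64 at Grin2b. The 12 members left out had mean levels from 0.355 to 0.812 RPKM, and the lowest member kept was at 0.834 RPKM. Since the filter used the mean of all libraries, a member high in any group could pass, and the counts below refer to the tested members only.

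In Early against Basal, 2 of 204 members rose and 2 fell, where 10.9% of all tested regions rose and 1.44% fell. The median log2 fold change was -0.03 over the members and 0.23 over all tested regions. By gene it was -0.04 at Gria1, 0.14 at Gria2, -0.17 at Grin2a and -0.04 at Grin2b. Both members that fell were at Grin2a, and 1 each rose at Gria1 and Gria2. Under the rescaling by ratios the split was 1 higher and 18 lower, beside 8.18% and 6.85% of all regions, with medians of -0.27 and 0.00. Under quantile normalization it was 0 higher and 16 lower, which is 7.84% of members lower beside 5.82% of all regions, with 6.6% of all regions higher. Without Early replicate 2 the counts were 0 and 0 (0.447% and 0.265% of all regions). Without Early replicate 1 they were 8 and 2 (24.8% and 1.89%), and without Early replicate 3 they were 3 and 3 (8.75% and 0.972%). Without Basal replicates 1 to 4 in turn they were 2 and 1, 1 and 3, 0 and 1, and 1 and 1, with 4.1% to 10.7% of all regions higher and 0.632% to 0.982% lower. Without any 1 of the 4 Late libraries they were 1 and 2 (9.22% to 9.29% and 1.18% to 1.2% of all regions).

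In Late against Basal, 44 members rose and 2 fell, beside 23.9% and 6.03% of all tested regions. By gene, 12 of 57 rose at Gria1, 13 of 39 at Gria2, 7 of 44 at Grin2a and 12 of 64 at Grin2b, and both that fell were at Grin2a. The median log2 fold change was 0.36 over the members and 0.28 over all regions, and was highest at Gria2 (0.52). The called rises had a median log2 fold change of 0.89 at Gria1, 0.78 at Gria2, 0.68 at Grin2a and 0.80 at Grin2b. Under the rescaling by ratios the split was 22 higher and 10 lower (14.6% and 16.4% of all regions), and under quantile normalization it was 29 and 9 (16.5% and 15.2%). With a covariate for the share of reads inside regions the split was 25 and 4, which is 12.3% and 1.96% of members beside 14.9% and 6.82% of all regions. Without Basal replicate 2 or 3 the count of rises was 25 in either case (17.1% and 15.7% of all regions), and without Late replicate 3 or 4 it was 26 and 29 (16.2% and 18.4%). Falls numbered 3 without Basal replicate 2 (1.47% of members beside 4.46% of all regions) or Late replicate 4. They numbered 1 without Basal replicate 1 or 3 (0.49% of members beside 4.77% and 4.67% of all regions) or Late replicate 1 or 3.

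In Reactivated against Basal, 65 members rose and 1 fell, beside 24.3% and 4.78% of all tested regions. The rises were 18 of 57 at Gria1, 14 of 39 at Gria2, 10 of 44 at Grin2a and 23 of 64 at Grin2b, and the fall was at Grin2a. The median log2 fold change was 0.48 over the members and 0.39 over all regions. Under the rescaling by ratios the split was 25 higher and 1 lower (8.92% and 10.7% of all regions), and under quantile normalization it was 24 and 1 (8.05% and 8.27%). With a covariate for the share of reads inside regions both counts were 0, as they were over all 172143 tested regions. That share was higher in each Reactivated library than in each Basal library, and its part in the result was not tested. Without Basal replicate 2 or 3 the rises were 39 and 36 (14.1% and 12.7% of all regions), and without Reactivated replicate 1 or 3 they were 33 and 31 (14.3% and 9.23%). Without Basal replicate 2 there were 2 falls (0.98% of members beside 3.09% of all regions).

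The 3 comparisons that did not involve Basal gave few calls. In Late against Early 1 member rose and 0 fell (0.310% and 0.103% of all regions). Of 204 members, 185 (90.7%) had a positive fold change, beside 53.0% of all tested regions. An unadjusted limma p under 0.05 was found for 56 members and for 22006 of all 172143 tested regions. The median log2 fold change was 0.34 over the members and 0.02 over all regions. In Reactivated against Early 5 members rose, 2 at Gria1 and 3 at Grin2a, and 0 fell (0.944% and 0.417%). There the median was 0.51 over the members and 0.11 over all regions. Of 204 members, 194 (95.1%) were positive, beside 60.2% of all tested regions. An unadjusted limma p under 0.05 was found for 83 members and for 33513 of all 172143 tested regions. Without Early replicate 2, 24 members (11.8%) rose in Late against Early and 68 (33.3%) in Reactivated against Early, and the shares of all regions were then 5.0% and 14.5%. In Late against Early the count was 0 without Basal replicate 4, Early replicate 1 or 3, or Late replicate 2, 3 or 4. Of all regions, 0.25% rose there without Basal replicate 4 and 0.104% without Early replicate 1, beside 0.310% with all libraries. In Reactivated against Early the count was 0 without Early replicate 1 or Reactivated replicate 1, 1 without Early replicate 3 or Reactivated replicate 2 or 3, and 3 without Basal replicate 2 or Late replicate 2, 3 or 4. Only 0.00232% of all regions rose without Early replicate 1, and 0.613% without Basal replicate 2, beside 0.944% with all libraries. Where no share over all regions is given, a lower count cannot be read as a change of the members alone. In Reactivated against Late limma called 0 members in either direction (0.0256% and 0.205% of all regions). An unadjusted limma p under 0.05 was found for 16 of 204 members and for 19532 of all 172143 tested regions, which is a larger share.

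**Figure D3:**
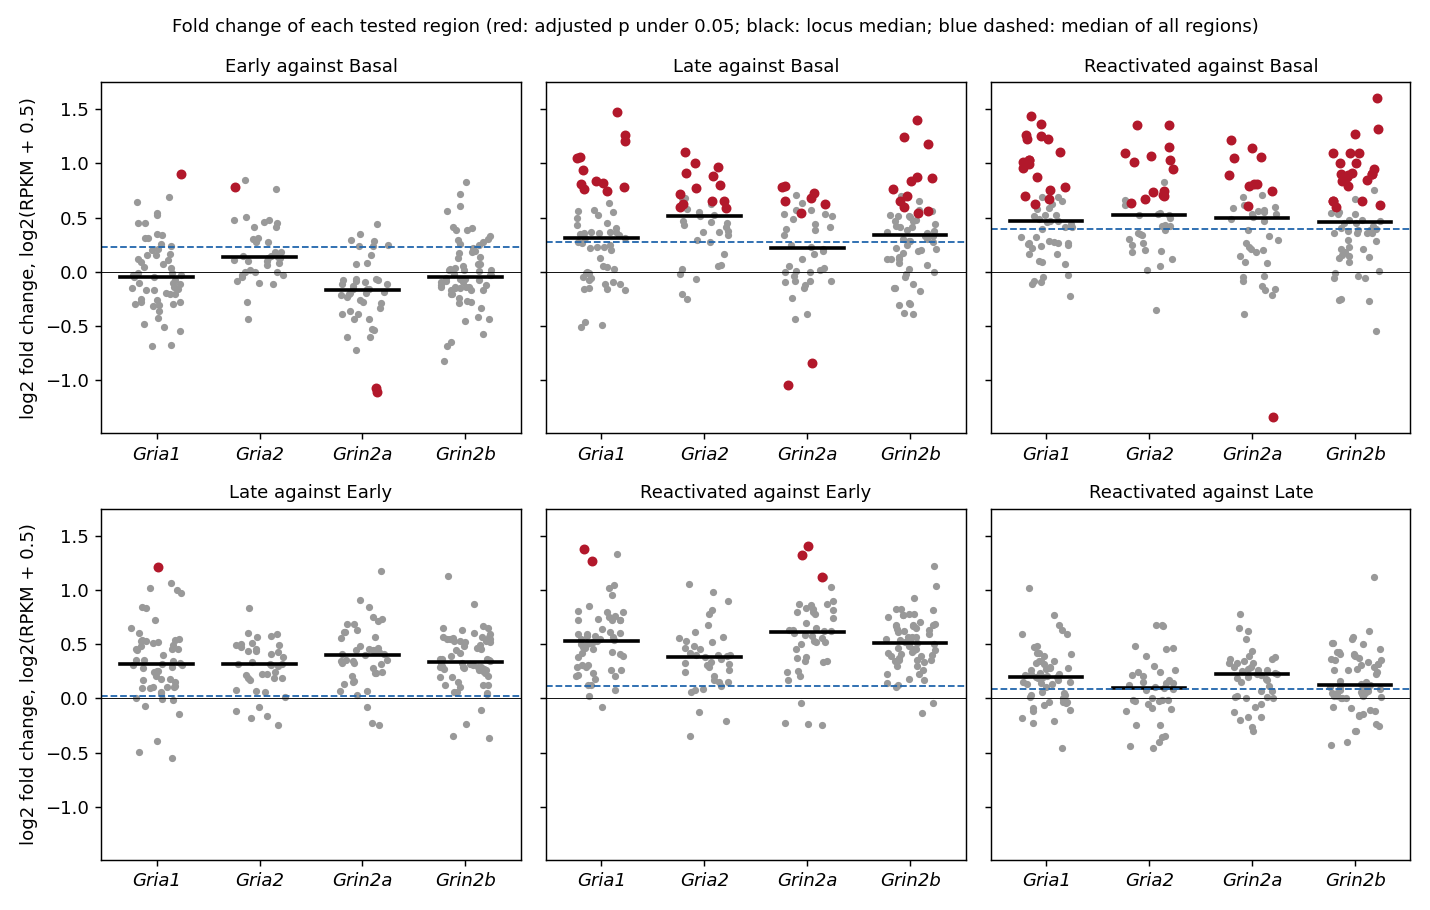
Log2 fold change of each tested region (points) at the 4 loci in the 6 comparisons, on the log2(RPKM + 0.5) scale. Red points have an adjusted p under 0.05, black bars are the locus medians and the blue dashed line is the median of all tested regions. In Late and Reactivated against Early the black bars lie above the dashed line at each locus.

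The group means within each region were also put in order, on RPKM not set against other regions. By that measure the locus level had Early as the lowest group only at Grin2a. Over all 216 members, Early was the lowest group in 109 (50.5%), where this held for 15.7% of all 191271 regions. Basal was lowest in 93 (43.1%, beside 55.7%), Late in 10 (4.63%, beside 15.7%) and Reactivated in 4 (1.85%, beside 12.8%). Early was lowest in 29 of 58 regions at Gria1, 32 of 47 at Grin2a and 39 of 71 at Grin2b, but in 9 of 40 at Gria2, where Basal was lowest in 28. Reactivated was the highest group in 152 members (70.4%, beside 41.5% of all regions). Regions of a locus come from the same libraries, so these counts are a description and not independent observations. They include Early replicate 2 and were not repeated without it.

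At Gria1, which encodes the GRIA1 subunit whose delivery to synapses accompanies potentiation, the largest called rises of the comparisons lay between 193 and 210 kb into the window. The region chr11:57008240-57008603 stood at 0.558, 0.355, 0.254 and 0.305 RPKM in Basal, 0.660, 1.73 and 1.12 in Early, 1.13, 2.09, 0.989 and 1.99 in Late, and 1.62, 1.98 and 1.93 in Reactivated. Its 10 libraries outside Basal were all above its 4 Basal libraries. It rose in Early (log2 fold change 0.90 ± 0.25, limma's SE, adjusted p = 0.0230), in Late (1.21 ± 0.23, adjusted p = 0.00113) and in Reactivated (1.44 ± 0.25, adjusted p = 0.00202). The Early call was lost without Early replicate 2 (0.67) and without Basal replicate 3 (0.84) or 4 (0.87).

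The neighbouring region chr11:57010721-57011094 was at 0.296, 0.543, 0.494 and 0.939 RPKM in Basal, 0.791, 2.22 and 0.741 in Early, 1.96, 3.20, 2.49 and 2.11 in Late, and 3.43, 1.58 and 1.88 in Reactivated. Late and Reactivated lay above Basal without overlap, and it rose in Late by a log2 fold change of 1.48 ± 0.27 (adjusted p = 0.000925) and in Reactivated by 1.37 ± 0.29 (adjusted p = 0.00447). The region chr11:57024416-57024736 held 0.864, 0.921, 0.403 and 0.633 RPKM in Basal, 0.576, 0.288 and 0.922 in Early, 1.48, 3.25, 1.72 and 1.73 in Late, and 2.94, 2.19 and 1.79 in Reactivated. Here Early overlapped Basal, and the 7 later libraries were above the 7 of day 0. It was the member called in Late against Early (1.21 ± 0.26, adjusted p = 0.0382), and it rose in Reactivated against Early (1.38 ± 0.28, adjusted p = 0.0278). Against Basal it rose by 1.05 ± 0.24 in Late (adjusted p = 0.00367) and 1.22 ± 0.26 in Reactivated (adjusted p = 0.00458). The call of Late against Early was lost without Basal replicate 4, Early replicate 1 or 3, or Late replicate 2, 3 or 4, with folds of 1.01 or above. That of Reactivated against Early was lost without Early replicate 1 or 3 or any 1 Reactivated library, with folds of 1.22 or above.

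The highest region of Gria1, chr11:57084988-57085772, stood at 3.43, 1.65, 1.65 and 2.82 RPKM in Basal, 1.65, 6.28 and 3.88 in Early, 2.89, 4.04, 4.39 and 4.18 in Late, and 8.03, 3.83 and 5.36 in Reactivated. Reactivated lay above Basal and rose by 1.11 ± 0.34 (adjusted p = 0.0225), a call that was lost without Reactivated replicate 1 (0.86) or 3 (1.13) and without Basal replicate 2 or 3 (0.98 in each case). The other high regions, chr11:57017373-57017536 and chr11:57132708-57133645, passed no test, with group means of 1.55 to 3.42 RPKM and 1.42 to 2.76 RPKM. The widest region, chr11:56926511-56928376, had group means of 0.837 ± 0.127 RPKM in Basal, 1.06 ± 0.328 in Early, 1.15 ± 0.0669 in Late and 1.35 ± 0.257 in Reactivated (SD) and passed none either. Outside the rule for named regions, and picked after its values were seen, chr11:57137637-57138021 was the other Gria1 member called in Reactivated against Early (1.27 ± 0.31, adjusted p = 0.0451).

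At Gria2, the highest region of all 216 was chr3:80606221-80607430, 8.17 kb from the window edge at the start of the gene. It held 6.66, 4.47, 3.81 and 4.66 RPKM in Basal, 3.13, 8.46 and 4.09 in Early, 3.97, 3.53, 4.64 and 3.80 in Late, and 7.66, 5.58 and 6.69 in Reactivated. All groups overlapped Basal, and it passed no test (Late against Basal -0.25 ± 0.28, adjusted p = 0.519; Reactivated against Basal 0.42 ± 0.30, adjusted p = 0.277). The next region, chr3:80604210-80605698, had group means of 3.44 ± 0.656 RPKM in Basal, 2.80 ± 0.865 in Early, 2.92 ± 0.512 in Late and 3.94 ± 0.0982 in Reactivated (SD) and passed none.

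Further into the Gria2 window, chr3:80528706-80529650 stood at 2.03, 1.84, 1.74 and 2.93 RPKM in Basal, 1.80, 6.93 and 2.19 in Early, 3.42, 4.62, 3.47 and 3.31 in Late, and 6.18, 5.70 and 6.62 in Reactivated. The Reactivated libraries were above those of Basal and Late, and Early replicate 2 was the highest of all. It rose in Reactivated against Basal by 1.36 ± 0.32 (adjusted p = 0.00676), and Late against Basal did not pass (0.69 ± 0.30, adjusted p = 0.0809). The region chr3:80533037-80533571 was at 0.345, 0.897, 0.552 and 1.17 RPKM in Basal, 2.07, 1.48 and 1.24 in Early, 1.82, 2.44, 2.25 and 1.87 in Late, and 0.932, 1.59 and 1.80 in Reactivated.

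Early and Late lay above Basal there without overlap, and Reactivated overlapped it. This region rose in Late (1.10 ± 0.24, adjusted p = 0.00228) and in Early (0.79 ± 0.25, adjusted p = 0.0451). The Early call was lost in 9 of 14 fits that each left out 1 library: those without Basal replicate 1 (0.62), 2 (0.86) or 3 (0.72), Early replicate 1 (0.63) or 2 (0.82), or any 1 Late library (0.79 in each case). The widest Gria2 region, chr3:80475921-80478178, rose in Late from 1.08 ± 0.214 to 1.98 ± 0.319 RPKM (SD; log2 fold change 0.65 ± 0.22, adjusted p = 0.0268), and this call was lost without Late replicate 3 (0.57) and without Basal replicate 2 (0.57) or 3 (0.63).

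At Grin2a, which encodes the NMDA receptor subunit that predominates in the adult forebrain, 2 narrow regions were the members that fell. The region chr16:9943725-9943969 held 2.64, 1.44, 1.81 and 2.34 RPKM in Basal, 0.982, 0.0755 and 1.36 in Early, 1.06, 0.444, 0.433 and 1.13 in Late, and 0.583, 0.529 and 0.378 in Reactivated. Its 4 Basal libraries were above the 10 others. In Late and Reactivated most tested regions of the locus had a positive fold change. It fell by 1.11 ± 0.31 in Early (adjusted p = 0.0254), by 1.04 ± 0.29 in Late (adjusted p = 0.0106) and by 1.34 ± 0.31 in Reactivated (adjusted p = 0.00625). These comparisons share the Basal libraries. Early replicate 2 held 1 read here, and without it the Early difference was -0.60 and not called. The Early call was also lost without Basal replicate 1 (-1.001), 3 (-1.15) or 4 (-1.05), and the Late and Reactivated calls held with each library left out in turn.

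The region chr16:9758652-9758794, 142 bases long, stood at 3.37, 1.82, 3.50 and 2.47 RPKM in Basal, 0.909, 0.909 and 1.30 in Early, 0.758, 1.68, 0.892 and 2.25 in Late, and 1.63, 2.08 and 3.38 in Reactivated. Early lay below Basal, and Late and Reactivated overlapped it. It fell in Early by 1.07 ± 0.29 (adjusted p = 0.0224) and in Late by 0.84 ± 0.27 (adjusted p = 0.0238), and Reactivated did not pass (-0.21 ± 0.29, adjusted p = 0.570). Its libraries held 5 to 27 reads. Without Basal replicate 3 (-0.97) or Early replicate 2 (-1.01) the Early call was lost, and without Basal replicate 1 (-0.75) or 3 (-0.73) or Late replicate 1 (-0.66) or 3 (-0.71) the Late call was lost.

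Other Grin2a regions rose. The highest, chr16:9801305-9802054, was at 1.72, 0.910, 0.960 and 0.984 RPKM in Basal, 1.11, 2.56 and 1.28 in Early, 1.98, 2.43, 2.42 and 2.27 in Late, and 4.94, 2.12 and 2.71 in Reactivated. Late and Reactivated lay above Basal, and it rose by 0.78 ± 0.26 in Late (adjusted p = 0.0268) and 1.15 ± 0.28 in Reactivated (adjusted p = 0.00778). The Late call was lost without Basal replicate 2, 3 or 4 or Late replicate 2, 3 or 4, with folds of 0.72 to 0.78. The region chr16:9760252-9760541, a near neighbour of the narrow region above, rose from 0.717 ± 0.287 RPKM in Basal to 1.58 ± 0.234 in Late and 1.98 ± 0.170 in Reactivated (SD; log2 fold changes 0.79 ± 0.20, adjusted p = 0.00705, and 1.05 ± 0.22, adjusted p = 0.00414).

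The region chr16:9589102-9589390, near the far end of Grin2a, held 1.02, 0.640, 0.320 and 0.640 RPKM in Basal, 0.256, 0.384 and 1.22 in Early, 1.12, 1.20, 0.806 and 1.70 in Late, and 2.28, 1.66 and 2.50 in Reactivated. Reactivated was above both Basal and Early and rose by 1.22 ± 0.27 against Basal (adjusted p = 0.00516) and 1.33 ± 0.29 against Early (adjusted p = 0.0314). The call against Early was lost without Early replicate 1 (1.09) or Reactivated replicate 1 (1.28) or 3 (1.23). The region chr16:9711572-9711757 also rose against Early (1.40 ± 0.34, adjusted p = 0.0434), from 0.598, 0.199 and 0.199 RPKM to 1.63, 3.39 and 0.697, with Early at 2 to 6 reads. That call was lost without Basal replicate 2, Early replicate 1 or 3, Reactivated replicate 1 or 2, or any 1 Late library, and the fold was 0.98 without Reactivated replicate 2. Picked after its values were seen, chr16:9953446-9954115 was the remaining called member (1.12 ± 0.24, adjusted p = 0.0312), with Early at 0.771, 0.661 and 0.716 RPKM and Reactivated at 2.76, 2.09 and 1.68. At the start of the gene, chr16:9994793-9996035 runs past the window edge, and its group means of 1.90 ± 0.486, 1.50 ± 0.512, 1.83 ± 0.348 and 2.94 ± 0.947 RPKM (SD; Basal, Early, Late, Reactivated) passed no test. The widest region, chr16:9851276-9852896, passed none either, with group means of 1.04 to 1.90 RPKM.

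At Grin2b, which encodes the subunit prominent in early development, 12 members rose in Late and 23 in Reactivated, and none was called in either comparison on the falling side. The region chr6:135764452-135764746 was at 0.564, 0.0627, 0.439 and 0.439 RPKM in Basal, 0.188, 1.63 and 0.251 in Early, 1.17, 1.40, 2.44 and 2.24 in Late, and 1.39, 1.00 and 1.63 in Reactivated. Late and Reactivated lay above Basal without overlap, and it rose by 1.40 ± 0.30 in Late (adjusted p = 0.00216) and 1.10 ± 0.32 in Reactivated (adjusted p = 0.0174). The Reactivated call was lost without Basal replicate 2 (0.90) or Reactivated replicate 3 (0.98). Basal replicate 2 held 1 read in it.

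The region chr6:135907683-135907957 held 0.874, 0.135, 0.0673 and 0.135 RPKM in Basal, 0.269, 1.61 and 0.942 in Early, 0.943, 1.82, 1.31 and 0.854 in Late, and 1.30, 2.09 and 2.02 in Reactivated. Basal replicate 1 overlapped Late, and Reactivated lay above all Basal libraries. It rose by 1.18 ± 0.29 in Late (adjusted p = 0.00590) and 1.60 ± 0.32 in Reactivated (adjusted p = 0.00321), the largest called log2 fold change at the 4 loci. Its libraries held 1 to 31 reads, and Basal replicate 3 held 1, so this fold is set against values near the lowest listed. The highest Grin2b region, chr6:135849265-135849747, was at 1.45, 0.650, 1.07 and 1.87 RPKM in Basal, 1.07, 5.28 and 1.91 in Early, 2.95, 3.37, 3.72 and 4.15 in Late, and 5.42, 2.98 and 3.17 in Reactivated. It too had no overlap between Basal and the later groups, and rose by 1.24 ± 0.32 in Late (adjusted p = 0.00686) and 1.32 ± 0.34 in Reactivated (adjusted p = 0.0107).

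That last call was lost without Reactivated replicate 1 (1.07). The region chr6:135809484-135809947 rose in Reactivated from 1.70 ± 0.304 to 4.05 ± 1.62 RPKM (SD; 1.00 ± 0.28, adjusted p = 0.0141), a call lost without Reactivated replicate 1 (0.73), whose value was 5.91. The widest region, chr6:135776770-135779094, rose in Late from 0.773 ± 0.160 to 1.38 ± 0.208 RPKM (0.56 ± 0.20, adjusted p = 0.0344), and this was lost without Basal replicate 2, 3 or 4 or Late replicate 2, 3 or 4, with folds of 0.49 to 0.58. The region chr6:135815843-135816292 passed no test, with group means of 1.91 to 3.59 RPKM. The Grin2b region nearest the window edge at the gene's start, chr6:136122115-136123929, picked after its values were seen, had group means of 1.83 ± 0.395 RPKM in Basal, 1.60 ± 0.528 in Early, 1.66 ± 0.354 in Late and 2.47 ± 1.16 in Reactivated.

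Called rises were also counted by their place in each window, without a test of the difference. Gria1 is transcribed towards higher coordinates and the other 3 towards lower ones, and the first 30 kb of each window in that direction is called the start end here. Of the 19 tested members in the start ends, 5 at Gria1, 6 at Gria2, 4 at Grin2a and 4 at Grin2b, 2 rose in Late against Basal, both at Gria2, and 2 in Reactivated against Basal, 1 each at Gria2 and Grin2b. In the rest of the windows, 42 of 185 rose in Late and 63 of 185 in Reactivated. Over all tested regions the shares were 23.9% in Late and 24.3% in Reactivated. The median log2 fold change in Late against Basal was -0.10 in the start end and 0.35 in the rest at Gria1, 0.37 and 0.52 at Gria2, 0.06 and 0.29 at Grin2a, and 0.21 and 0.35 at Grin2b. In Reactivated against Basal it was 0.44 in the start end and 0.49 in the rest at Gria1, 0.48 and 0.53 at Gria2, 0.32 and 0.53 at Grin2a, and 0.26 and 0.47 at Grin2b.

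**Figure D4:**
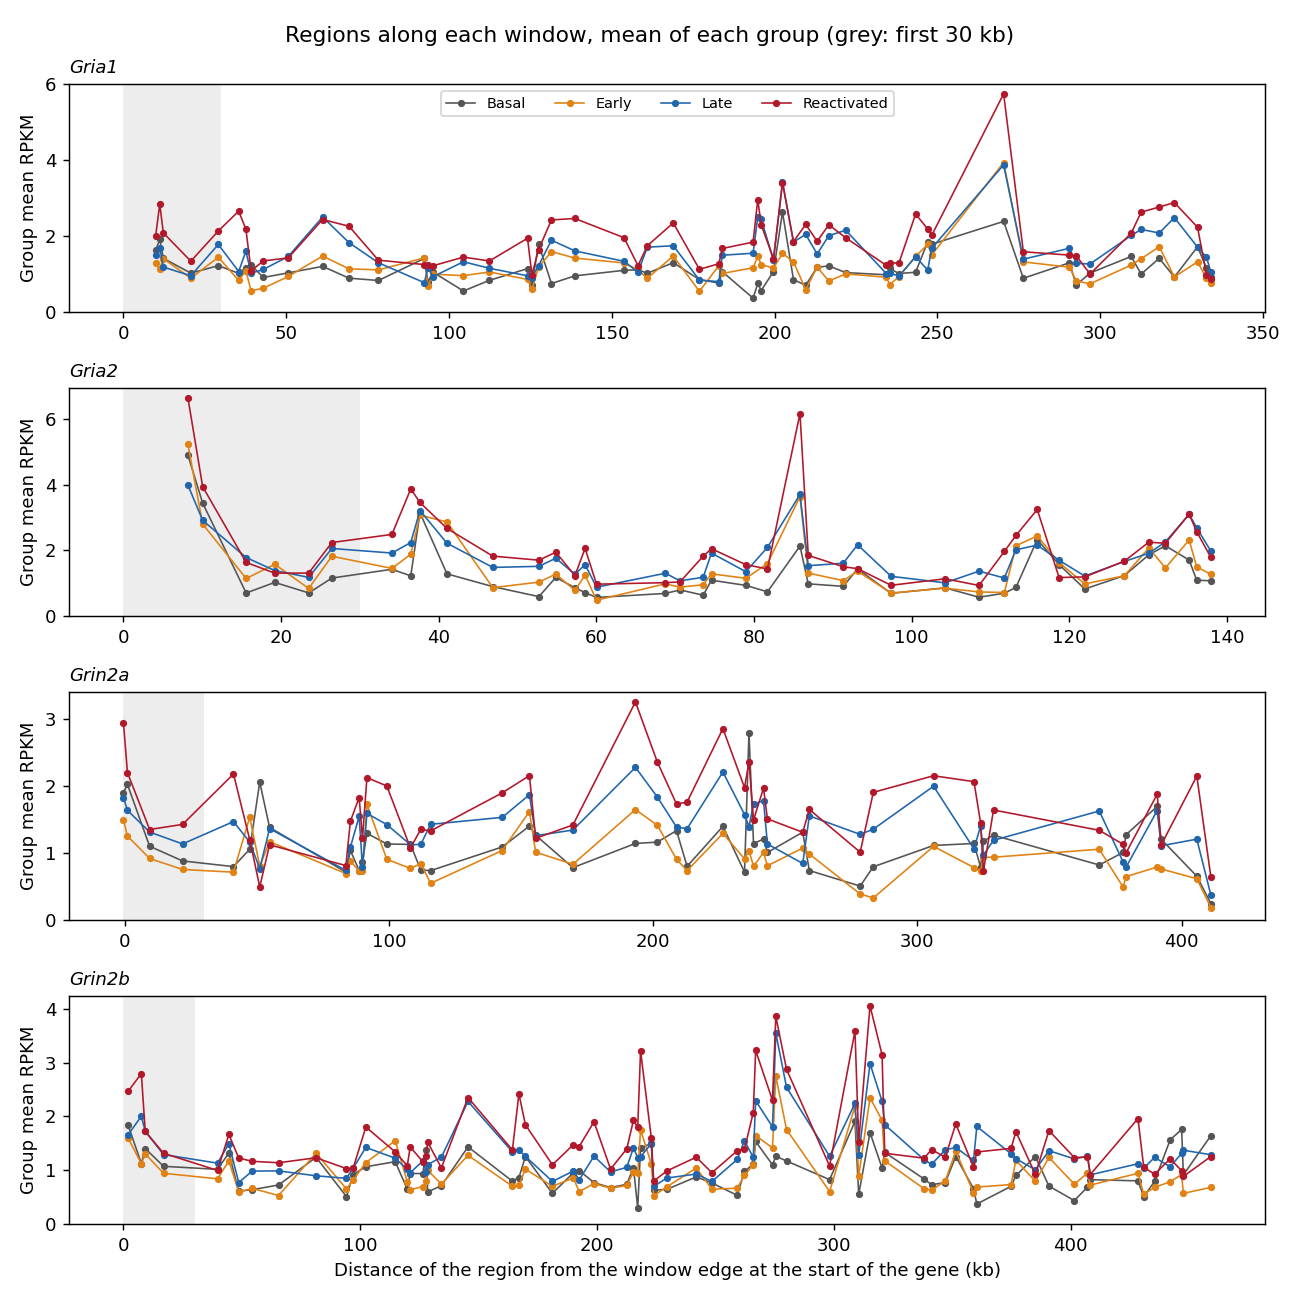
Group mean RPKM (y axis) of each region against its distance in kb from the window edge at the start of the gene (x axis), with the first 30 kb in grey. Points are regions and lines join regions of a group to guide the eye. The Gria2 peak near 8 kb is the highest region of the 4 loci, and at Grin2a the Basal line exceeds the others at the 2 regions that fell.

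Within each library, the level of the start end was set against that of the rest of the window. At Gria2 the log2 ratio was 1.74, 1.46, 1.32 and 1.23 in Basal, 1.11, 1.02 and 1.28 in Early, 0.67, 0.54, 0.74 and 0.61 in Late, and 1.06, 0.97 and 0.91 in Reactivated. Late was the lowest group there and overlapped no other. At Gria1 the ratio was 0.67, 0.40, 0.13 and 0.22 in Basal, 0.15, -0.20 and 0.43 in Early, -0.44, -0.22, -0.07 and 0.11 in Late, and -0.02, 0.12 and 0.12 in Reactivated. At Grin2a it was 0.63, 0.75, 0.61 and 0.36 in Basal, 0.30, 0.17 and 0.49 in Early, 0.27, 0.06, 0.09 and 0.07 in Late, and 0.38, 0.29 and 0.32 in Reactivated. At Grin2b it was 0.97, 0.83, 0.68 and 0.89 in Basal, 0.57, 0.58 and 0.70 in Early, 0.26, 0.56, 0.11 and 0.41 in Late, and 0.79, 0.14 and 0.57 in Reactivated. Early overlapped Basal at each of the 4 loci, and Reactivated lay below Basal at Gria1 and Gria2 and overlapped it at the other two. Late lay below Basal without overlap at each of the 4 loci, with log2 differences of -0.51 at Gria1, -0.80 at Gria2, -0.47 at Grin2a and -0.51 at Grin2b. The exact permutation test gave p = 0.0286 each time, its lower limit for 4 against 4 libraries, and 0.137 adjusted over 24 tests.

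**Figure D5:**
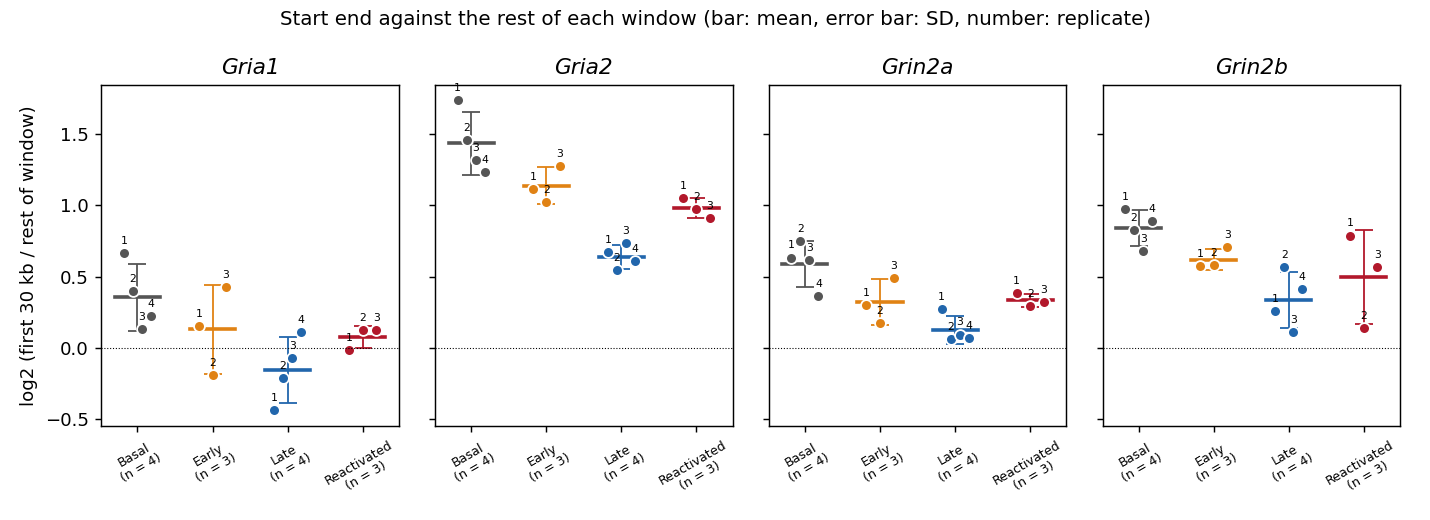
Log2 ratio of the level in the first 30 kb to that in the rest of the window, for each library (points) with the group's mean and SD. The 4 Late libraries lie below the 4 Basal libraries at each locus.

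The contrast between high and low regions also differed between groups over the whole table. The log2 ratio of the mean level of the highest 10% of regions to that of the rest lay between 1.22 and 1.73 for Basal, 1.08 and 1.61 for Early, 1.12 and 1.14 for Late, and 1.60 and 1.66 for Reactivated. The Late values were below each Basal value, as at the start ends. For Reactivated the 2 measures parted: its mean here, 1.64, exceeded the Basal mean of 1.44. Its mean start-end ratio was below that of Basal at each locus. The Late libraries also stood apart in the most reads per base held by any region of the table, 0.635 to 0.738 in Late beside 4.11 to 4.92 in Basal, 2.14 to 2.57 in Early and 5.04 to 9.75 in Reactivated. Their totals, as counted back, were 46134255 to 47375214 reads, and those of the 10 other libraries were 54257224 to 56251679. The part of these differences in the result at the 4 loci was not tested.

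The 500 kb stretches of the genome whose relative level followed each locus most closely were found among 4719 that held at least 10 regions, as a description over the same 14 libraries. For Gria1 it was chr6:115000001-115500000 (Pearson r = 0.981), with relative levels of 0.852 in Basal, 0.691 in Early, 0.983 in Late and 0.999 in Reactivated. For Gria2 it was chr14:39500001-40000000 (r = 0.943), for Grin2a chr11:101500001-102000000 (r = 0.978) and for Grin2b chr14:64500001-65000000 (r = 0.969). Each of these 4 stretches was lowest in Early, and the one most like Grin2a stood at 0.425 in Early beside 0.826 in Basal. All points share the libraries and their depths, and the closest of so many stretches is high by selection.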

How the data were processed

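The deposited table held RPKM values that the authors made for 191271 regions in 14 libraries. Bowtie2 2.0, SAMtools, MACS2, DiffBind, DESeq2 and mm9 are named per the submitters' processing notes, without roles. Coordinates are those of the table, and the base its starts count from was not settled. Whether duplicates were removed, cut positions shifted or regions called on pooled reads could alter narrow and high regions, and the sources used here do not say. Values times length were whole multiples of 1 step per library (tolerance 0.01). They were analysed as log2(RPKM + 0.5), without the lowest 10% of regions by mean RPKM. limma 3.58.1 (R 4.3.3; trend, robust) fitted all 14 libraries with group means, with Benjamini-Hochberg adjustment within each of 6 comparisons. Locus values were compared by 2-sided exact permutation tests (Python 3.11.15), adjusted over 24 tests a measure, or 6 for the AMPA and NMDA difference.

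Regions were named by rule: the 3 highest by mean RPKM and the widest per gene, and the largest called rise and fall per gene and comparison. The 4 genes and lists were chosen with earlier results of these data known. Lists of other glutamate receptor genes and cell markers were not run, for want of an mm9 annotation. The fit was tested on simulated data, and its pass mark for recovered changes was lowered after a first miss. Alternatives tried were the pseudocount, filter, scaling, 2 groups alone, replicate block, a covariate, other summaries and windows of a locus, and leaving out each library. 2 more, the reference by chromosome and the locus without its highest region, were added after seeing the data.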

Additional observations from a re-analysis of the deposited data

Results flagged for a closer look

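Of 78 groups of 4 libraries examined, 8 had a library whose distance from its nearest neighbour took up most of the group's range, and chance gives about 1 in 20. In 4 of them Basal or Late held a single high library at a Grin2 locus. At Grin2a the log2 ratio of start end to rest was 0.2742 in Late replicate 1, and 0.0588, 0.0922 and 0.0700 in the other Late libraries. At chr16:9801305-9802054, Basal replicate 1 was at 1.722 RPKM and the others at 0.910, 0.960 and 0.984. At chr16:9994793-9996035 the same library was at 2.626 RPKM, and the others at 1.60, 1.75 and 1.63. At chr6:135907683-135907957 it was at 0.8743 RPKM, and the others at 0.135, 0.0673 and 0.135.

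The other 4 were Late libraries at AMPA receptor loci. Late replicate 2 was at 4.92 RPKM at chr11:57017373-57017536 (the others 2.91, 2.85 and 3.00), at 3.251 RPKM at chr11:57024416-57024736 (the others 1.48, 1.72 and 1.73) and at 4.615 RPKM at chr3:80528706-80529650 (the others 3.42, 3.47 and 3.31). Late replicate 3 was at 2.45 RPKM at chr3:80475921-80478178, beside 1.77, 1.82 and 1.88.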

How the results depend on the processing

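None of the locus comparisons passed 0.05 after adjustment, nor could any with these group sizes, so for them only the direction is followed. It turned in the following differences, some of them among the larger ones: Late minus Basal at Grin2a was 0.308 RPKM and Early minus Basal at Gria2 0.273 RPKM with all settings as reported, and Early minus Basal in start end over rest at Gria2 was -0.30. With the mean of log2(RPKM + 0.5) over regions, Early minus Basal in level was -0.01129 at Gria1 and -0.008732 at Grin2b. With median-of-ratios scaling it was -0.2171 RPKM at Gria1, -0.1272 at Gria2 and -0.2136 at Grin2b, and Late minus Basal at Grin2a was -0.02938. Relative to other regions, the mean of logs gave Late minus Basal at Grin2a -0.03917 and Reactivated minus Late 0.01743 at Gria2 and 0.09512 at Grin2b. With regions of the same chromosome as reference (added after seeing the data), Late minus Basal at Grin2a was -0.05923, Reactivated minus Basal at Grin2a -0.02175 and Reactivated minus Late at Gria1 -0.08792. Without members under the filter, Reactivated minus Late was -0.005442 at Gria1, and 0.000122 for AMPA minus NMDA. For start end over rest, Reactivated minus Early at Gria1 was 0.03563 with the mean of logs, 0.009344 with the first 15 kb and 0.133 with the first 50 kb. At Grin2b it was 0.03166 with the mean of logs and at Grin2a -0.01056 with the first 15 kb, and Early minus Basal at Gria2 was 0.03083 with the mean of logs. The cause of these turns was not tested.

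Counts of called members, out of 2 higher and 2 lower in Early against Basal, 44 and 2 in Late against Basal, 65 and 1 in Reactivated against Basal, 1 higher in Late against Early and 5 higher in Reactivated against Early, moved as follows. Median-of-ratios scaling gave 1 and 18, 22 and 10, and 25 higher in these first 3 comparisons. Quantile normalization gave 0 and 16, 29 and 9, and 24 higher, and 9 in Late against Early (1.64% of all regions). The 2 groups alone gave 0 and 1 in Early against Basal (3.34% and 0.361% of all regions) and 70 higher in Late against Basal (32.9%). They gave 2 in Late against Early (0.26%) and 3 in Reactivated against Late (3.19%). With a covariate for the share of reads inside regions the counts higher and lower against Basal were 1 and 5 for Early, 25 and 4 for Late, and 0 and 0 for Reactivated (0 over all regions too), with 15 rises in Late against Early and 3 in Reactivated against Early. Of all regions, 3.7% were then higher and 2.89% lower in Early, and 14.9% and 6.82% in Late. The rises against Early were 2.7% of all regions for Late and 1.65% for Reactivated. Pseudocount 0.1 gave 4 lower (1.44% of all regions) and pseudocount 1 gave 1 higher (9.91%) in Early against Basal. No filter on low values gave 1 higher there (8.93%), 2 in Late against Early (0.449%) and 3 in Reactivated against Early (0.648%).

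The replicate block gave 1 and 1 in Early against Basal (6.09% and 0.688% of all regions). It gave 0 rises in Late against Early (0.144%) and 2 in Reactivated against Early (0.159%). In Late and Reactivated against Basal it gave 36 and 52 rises (20.8% and 17.2%). Replicate numbers did not pair the libraries: 0 of 19 pairs of the same number had deviations with a correlation above 0.1 (-0.26 to 0.07), and 0 of 14 libraries correlated best with their own number.

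Leaving out each library in turn gave 0 to 8 rises and 0 to 3 falls in Early against Basal, 25 to 61 and 1 to 3 in Late against Basal, 31 to 89 and 1 to 2 in Reactivated against Basal, 0 to 24 rises in Late against Early and 0 to 68 in Reactivated against Early. The 8 rises came without Early replicate 1 (24.8% of all regions), and the 61 and 89 without Early replicate 2 (30.9% and 34.7%). Reactivated minus Late ranged from -0.04864 to 0.05069 for AMPA minus NMDA and, relative to other regions, from -0.1809 to 0.09427 at Gria1, -0.1339 to 0.0825 at Grin2a and -0.166 to 0.07451 at Grin2b. Reactivated minus Basal at Grin2a ranged from -0.06765 to 0.1488. Early minus Basal in level ranged from -0.1632 to 0.3109 RPKM at Gria1, -0.1331 to 0.5351 at Gria2 and -0.1218 to 0.1705 at Grin2b. Reactivated minus Early in start end over rest ranged from -0.2151 to 0.09638 at Gria1, -0.06301 to 0.09797 at Grin2a and -0.2646 to 0.06019 at Grin2b. Of 34 calls of named regions, 8 held in each alternative run and 0 changed direction.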
